A study of Mus musculus with 6 samples.

Results

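Sox9 and Sox10 are transcription factors of the neural crest, the embryonic cell population that gives rise to melanocytes, and they were described here with every other SOX gene measured in B16.F10 cells after simvastatin. Members were all genes whose symbol is Sox followed by a number in the authors' deposited table of transcripts, which gave 6 genes (Sox4, Sox5, Sox6, Sox9, Sox10 and Sox11) of 8513, with 12 transcripts of 15905. B16.F10 is an established pigmented mouse melanoma line, labelled as wild type. The study compared 3 samples without treatment with 3 samples given 3.5 µM simvastatin for 24 h, a statin that blocks synthesis of mevalonate and so of cholesterol and prenyl groups. Whether control cells received the drug's solvent is not stated in the labels. The series text calls the samples biological replicates, without saying whether they were separate cultures, so the p-values may measure technical spread only.

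SOX proteins bind DNA through a high-mobility-group box and are sorted into groups by the likeness of that box. Sox9 and Sox10 belong to the SoxE group, Sox5 and Sox6 to SoxD, and Sox4 and Sox11 to SoxC. In the melanocyte lineage Sox10 is required for the survival of the precursor cells and activates Mitf, the lineage's master regulator, and Dct, a pigment enzyme gene. Sox9 is best known as the driver of cartilage formation and of testis development, and it is also made in neural crest cells and in some melanomas. Sox5 and Sox6 lack an activation domain of their own and act beside Sox9 in cartilage, and Sox5 also acts against Sox10 in melanocytes. Sox4 and Sox11 are made in many embryonic progenitors.

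The table gives 1 value per group for each transcript, so no value per sample and no SD can be shown, and sequencing depth is unknown. The unit of these values, and whether they are scaled by transcript length, is not stated in the labels or headers, so levels of different genes are not ranked. Where a pair of values is given, that of simvastatin comes first, and the most abundant transcript of a gene is the one with the highest mean of the group values. The sum of all group values was 344210 with simvastatin against 394749 in control, and the median log2 fold change of all transcripts was 0.01. All 8 melanocyte markers looked for were measured, with summed values of 8758 with simvastatin and 6335 in control for their most abundant transcripts. No adjusted p among these was under 0.05. Summed over each gene's transcripts, 7 markers were higher with simvastatin and 1 was lower. None of the markers of fibroblasts (6), chondrocytes (5), keratinocytes (4) and endothelial cells (4) had a row in the table used here, and of 5 macrophage markers only Cd68 did, at values under 1. A transcript is called changed here when the authors' adjusted p is under 0.05, which 176 transcripts on the higher side (1.11%) and 157 on the lower side (0.987%) met. By that rule 2 of the 12 SOX transcripts were higher and none lower, those of Sox9 and Sox4. An unadjusted p under 0.05 was listed for 5 of the 12 SOX transcripts, which adds 1 each of Sox5, Sox6 and Sox11, beside 19.6% of all transcripts.

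Because the SOX genes descend from a common ancestor, the coding sequences were compared to see how much identical sequence a read could fall in. Sox9 and Sox10 share 1 exact run of 44 bases, their longest. Only annotated coding sequence was compared, without untranslated sequence or stretches that are alike but not identical. The run is shown because it is the longest found for these 2 genes in that comparison. It lies in coding sequence of exon 1 of Sox9 at chr11:112782831-112782874 (GRCm38, plus strand) and of Sox10 at chr15:79163430-79163473 (minus strand), which is exon 3 of the transcript Sox10-203.
Sox9 and Sox10 shared coding run: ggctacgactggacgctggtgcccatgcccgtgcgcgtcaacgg
Among the 15 pairs of the 6 genes, the longest exact coding run ranged from 11 to 48 bases with a median of 17, and the longest was that of Sox4 with Sox11. The read length is not stated in the labels, so how many reads could be assigned to more than 1 SOX gene was not tested.

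Sox9 was higher with simvastatin. In the authors' deposited table its single transcript, Sox9-201, had a group value of 8.34 with simvastatin and 2.58 in control. It rose 3.23-fold (log2 fold change 1.69, p = 0.001, adjusted p = 0.043 in the authors' deposited table). This transcript has 3 exons and 4135 bases, of which 1521 are coding, at chr11:112782224-112787760 on the plus strand in GENCODE (GRCm38). It is the only annotated transcript of the gene there, so the gene total is the same value. Among the 149 named genes that rose by their most abundant transcript, 24 had a fold at least as large as that of Sox9, itself included, and the median fold of the 149 was 1.82. The call stood near the threshold: 265 transcripts had an adjusted p of 0.043 or less, and 87 lay from 0.043 up to the threshold. From control to simvastatin Sox9 remained below 10 in the table's unit, and adding 1 to both group values lowered its log2 fold change to 1.38.

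Sox10 differed from Sox9 in that its RNA was spread over 6 transcripts, none of which passed the test. Summed over them, the authors' deposited table gives 45.03 with simvastatin and 44.15 in control, a ratio of 1.02. The transcripts went both ways, 4 with higher and 2 with lower values under simvastatin, and their unadjusted p-values ran from 0.436 to 0.989 in the authors' deposited table. The most abundant one, Sox10-203, had 16.71 with simvastatin and 23.68 in control (1.42-fold lower, adjusted p = 0.907 in the authors' deposited table). It codes for the protein in 1398 of its 2780 bases over 5 exons at chr15:79154908-79165240, on the minus strand. An assembled transcript model, TCONS_00009733, followed the same direction with 8.92 and 14.23 in the authors' deposited table (with an adjusted p of 0.870).

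The other assembled models and annotated transcripts of Sox10 were equal or higher with simvastatin. TCONS_00009734 had 10.20 with simvastatin and 0.02 in control in the authors' deposited table, where the fold of 517.18 carries a p of 0.436 and an adjusted p of 0.716. Sox10-201, the other coding transcript, had 2.37 and 0.41 in the authors' deposited table (5.78-fold, adjusted p = 0.804). These are the largest folds within the SOX family, and both start from control values under 1. With 1 added to each value, the log2 ratio of Sox10-201 was 1.26, below the 1.38 of Sox9. That of TCONS_00009734 was 3.46, above it. TCONS_00009732 had 3.47 and 2.48 in the authors' deposited table (with an adjusted p of 0.861). Sox10-204, which retains an intron and is annotated without a coding sequence, had 3.36 and 3.33 in the authors' deposited table (with an adjusted p of 0.995).

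**Figure D1:**
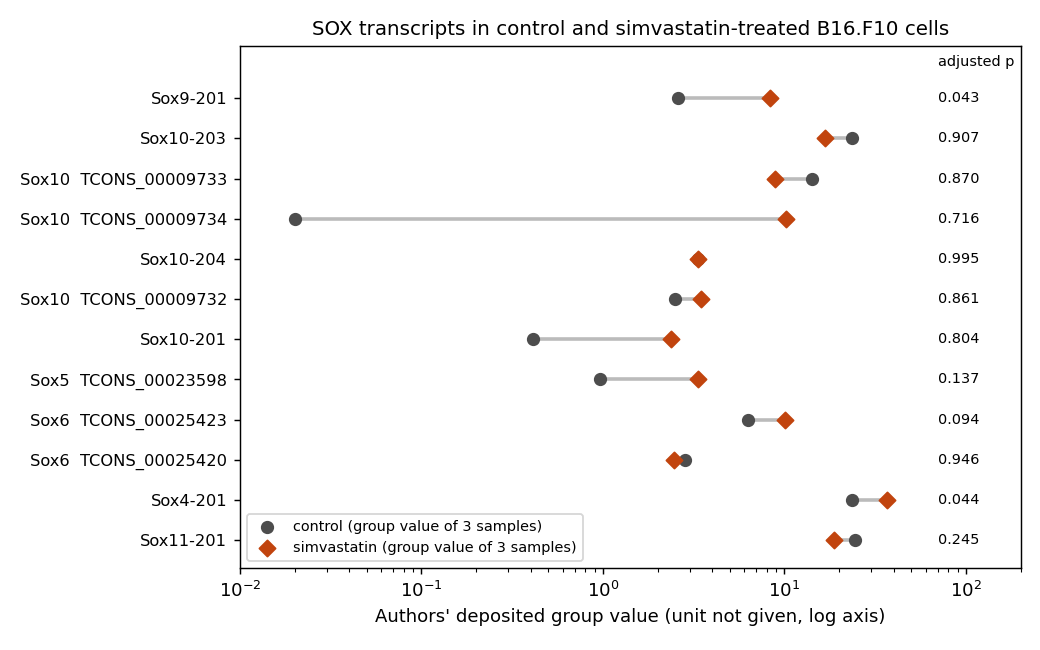
Group values of the 12 SOX transcripts in control (circles) and simvastatin (diamonds), each the authors' 1 value for 3 samples, on a log axis in a unit that is not given, with the authors' adjusted p at the right. Sox9-201 moved from 2.58 to 8.34 and Sox4-201 from 23.58 to 36.95, the transcripts with an adjusted p under 0.05, while the longest line, TCONS_00009734 of Sox10, has an adjusted p of 0.716.

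Seen as shares of the summed Sox10 value, the listed values of its transcripts differed between the groups more than the total did. Sox10-203 held 53.6% of the total in control and 37.1% with simvastatin. TCONS_00009733 held 32.2% in control and 19.8% with simvastatin. From control to simvastatin, TCONS_00009734 went from 0.0453% to 22.7%, and Sox10-201 from 0.929% to 5.26%. The sum over the 3 annotated transcripts was 22.44 with simvastatin against 27.42 in control, and that over the 3 assembled models was 22.59 against 16.73. Without TCONS_00009734 the total was 34.83 against 44.13, a log2 ratio of -0.34, so the equal totals rest on that 1 model. None of these shares has a test, since the table gives no value per sample. Scaling by transcript length is not stated, so they are shares of the listed values and not of RNA molecules.

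The 2 coding transcripts of Sox10 measured here overlap almost wholly. All 2713 exon bases of Sox10-201 lie within exons of Sox10-203, which has only 67 bases of its own. Of the 982 bases of Sox10-204, 711 are shared with Sox10-203 and 271 are not. The assembled models carry no coordinates in the table and could not be placed on these exons. Large folds without a small p were common in the whole table. Of 645 transcripts with a fold of 10 or more in either direction, 540 (83.7%) had an unadjusted p of 0.05 or more, and 606 had a smaller group value under 1. Among the 795 named genes with at least 4 transcripts, the distance between the highest and the lowest log2 fold change had a median of 2.67, and in Sox10 it was 9.68. Of these genes 25 (3.14%), with Sox10, had a distance at least that large, and in 5 of them the gene totals of the groups lay within 1.1-fold of each other.

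**Figure D2:**
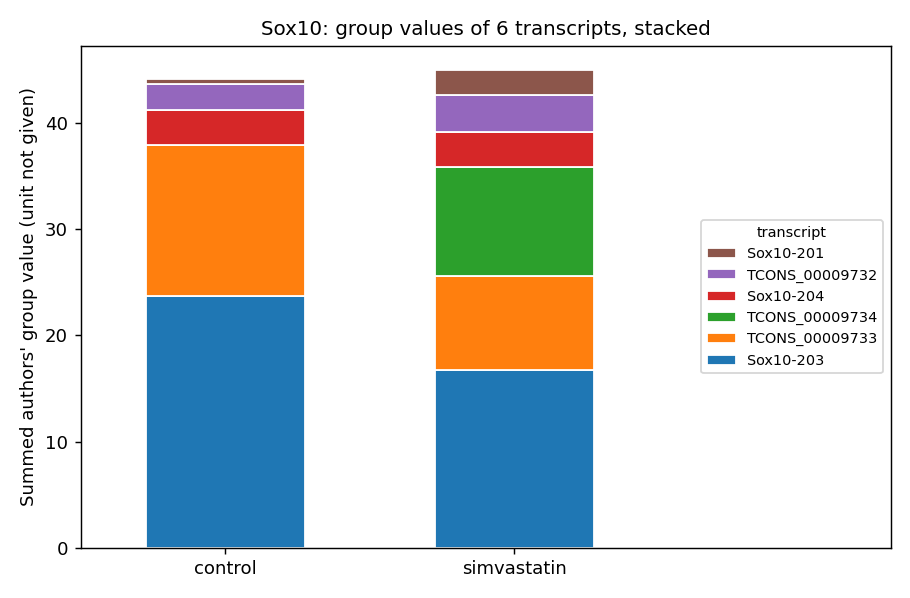
Stacked group values of the 6 Sox10 transcripts in control and simvastatin, 1 bar per group of 3 samples, in the authors' unit, which is not given. The bars reach 44.15 in control and 45.03 with simvastatin. Sox10-203 at the base takes 23.68 in control and 16.71 with simvastatin, and TCONS_00009734 is visible only with simvastatin, at 10.20.

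Taking the most abundant transcript of each gene, the log2 fold change of Sox9 lay 2.20 above that of Sox10, and by gene totals it lay 1.66 above. The difference could not be tested with 1 value per group. The sum of both measured SoxE genes was 53.4 with simvastatin and 46.7 in control. Of 20 SOX genes looked for, 14 had no row in the table used here, so a group's sum covers its measured genes only.

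The SoxD genes had higher values with simvastatin in their main transcripts, and neither passed the test. Sox5 had 1 assembled transcript, with 3.36 with simvastatin and 0.96 in control in the authors' deposited table (3.51-fold, p = 0.015, adjusted p = 0.137). Its fold was larger than that of Sox9, from a control value under 1. The main transcript of Sox6, TCONS_00025423, had 10.08 and 6.34 in the authors' deposited table (1.59-fold, p = 0.007, adjusted p = 0.094). The other, TCONS_00025420, had 2.46 and 2.85 in the authors' deposited table (with an adjusted p of 0.946), and the Sox6 totals were 12.54 and 9.19, a ratio of 1.36. Both Sox5 and the main Sox6 transcript carry the authors' own call, which reaches an adjusted p of up to 0.2 and needs a fold of at least 1.5. By that call 4 of the 12 SOX transcripts were higher, beside 5.13% of all transcripts, and none was lower, beside 4.37%. At an adjusted p under 0.1, 3 SOX transcripts were higher, those of Sox9, Sox4 and the main one of Sox6, beside 4.02% of all transcripts.

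The SoxC genes went in opposite directions, and Sox4 alone passed. Sox4 had 36.95 with simvastatin and 23.58 in control in the authors' deposited table and rose 1.57-fold (log2 fold change 0.65, p = 0.001, adjusted p = 0.044). It is a gene of 1 exon and 4795 bases at chr13:28948919-28953713 on the minus strand, with 1320 coding bases. Sox11, also of 1 exon, at chr12:27334264-27342574 on the minus strand, had 18.73 and 24.60 in the authors' deposited table (1.31-fold lower, p = 0.045, adjusted p = 0.245). Summed, the measured SoxC genes had 55.7 and 48.2. The difference between the changes of Sox4 and Sox11 was not tested.

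The RefSeq promoter table (GRCm38.p6) held 4 of the 6 SOX genes, Sox4, Sox5, Sox6 and Sox11. The 250 bases before the RefSeq start are shown for Sox4, which rose, and for Sox11, its group partner, which did not pass. They lie at chr13:28953700-28953949 and chr12:27342719-27342968, both on the minus strand. The GENCODE starts differ from these: that of Sox4, chr13:28953713, lies within its window. That of Sox11, chr12:27342574, lies downstream of its window. Capitals mark letters that match a searched motif on either strand.
Sox4: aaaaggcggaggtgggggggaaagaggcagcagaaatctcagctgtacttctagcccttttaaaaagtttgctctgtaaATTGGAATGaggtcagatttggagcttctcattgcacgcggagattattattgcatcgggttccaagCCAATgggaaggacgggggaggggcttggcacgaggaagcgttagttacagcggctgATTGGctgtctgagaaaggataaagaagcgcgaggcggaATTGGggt
Sox11: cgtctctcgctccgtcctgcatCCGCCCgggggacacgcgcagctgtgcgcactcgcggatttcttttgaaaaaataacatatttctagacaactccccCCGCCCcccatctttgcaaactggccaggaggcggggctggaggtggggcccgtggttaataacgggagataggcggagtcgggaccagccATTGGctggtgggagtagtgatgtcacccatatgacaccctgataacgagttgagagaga
The Sox4 window held 4 matches to the CCAAT box (CCAAT) and 1 to the TEAD element (GGAATG), which overlaps a CCAAT box read on the other strand. The CCAAT match 8 bases before the RefSeq start lies within the GENCODE transcript of Sox4. The Sox11 window held 2 matches to the GC box (GGGCGG) and 1 to the CCAAT box. Of 32851 promoter windows of that length, 33.8% held a CCAAT box, 32.7% a GC box and 12.6% a TEAD element, and 0.840% held at least 4 CCAAT boxes. The other motifs searched were the TATA box (TATAAA, in 12.4% of windows), the cyclic AMP response element (TGACGTCA, 1.55%), the AP-1 element (TGAGTCA, 4.46%), the E-box (CACGTG, 6.02%), the SOX core (ACAAAG, 16.5%) and the core of the sterol regulatory element (CACCCCAC, 2.58%). None of these letters stood in either window.

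**Figure D3:**
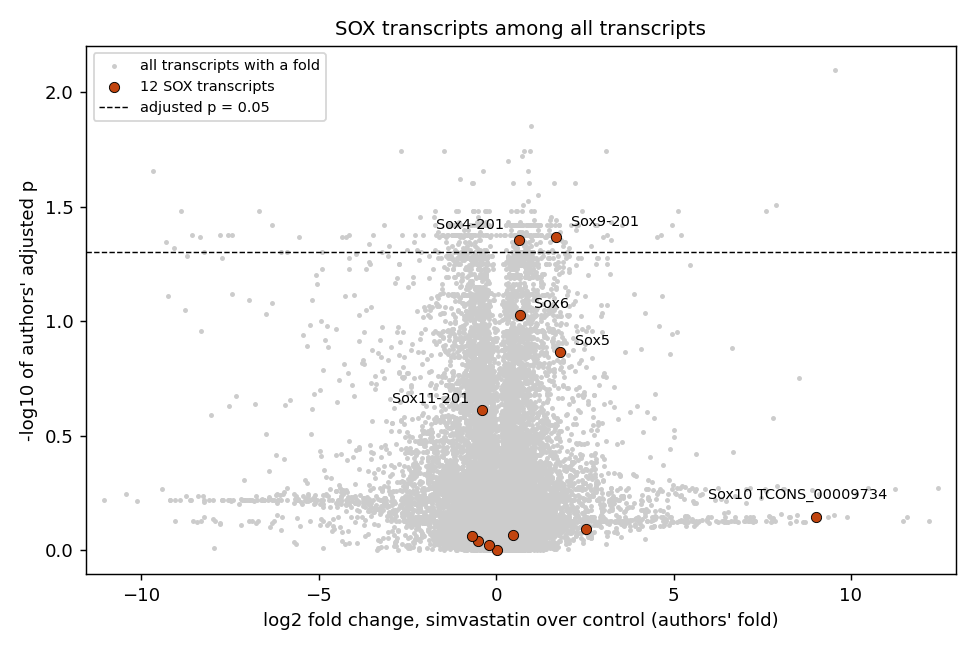
Each point is a transcript, with the log2 fold change of simvastatin over control from the authors' fold on the x axis and -log10 of the authors' adjusted p on the y axis; the dashed line is an adjusted p of 0.05. Sox9-201 (0.043) and Sox4-201 (0.044) lie just above the line, Sox6 and Sox5 below it, and all 6 Sox10 transcripts near the bottom, 1 of them at a log2 fold change of 9.01.

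Over the 6 genes the median log2 ratio of gene totals was 0.55, beside 0.02 over all 8482 named genes. Scaling each group by its summed values adds 0.20 to every log2 value. With that scaling Sox11 was at -0.19 and Sox10-203 at -0.31, and the signs of all 6 gene totals were as without it. The gene totals closest to those of Sox9, by Euclidean distance over log2 of the value plus 1 in the 2 groups, included the glycosyltransferase gene B3gnt2 (distance 0.0840) and the transcription factor gene Klf7 (0.159). Those closest to Sox10 were Dad1, of the oligosaccharyltransferase (0.00248), the myosin gene Myo10 (0.010) and the small GTPase gene Arf3 (0.0145). With only 2 group values per gene, this likeness says no more than that the levels were near each other.

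The genes beside Sox9 and Sox10 on the chromosome gave a further comparison. The nearest protein-coding gene to the right of Sox9 is Slc39a11, a zinc transporter gene 457093 bases away on the opposite strand. Its 4 transcripts did not pass in the authors' deposited table (adjusted p-values from 0.140 to 0.748). Polr2f, a subunit gene of the RNA polymerases on the strand opposite to Sox10, ends 3134 bases from it. Its main transcript had 20.96 with simvastatin and 31.71 in control in the authors' deposited table (1.51-fold lower, adjusted p = 0.098). A minor one had 0.35 and 4.21 in the authors' deposited table (11.86-fold lower, adjusted p = 0.056). Neither Polr2f transcript passed the threshold used here. Both carry the authors' own call on the lower side, as do 4.37% of all transcripts. Kcnj2, to the left of Sox9, and Pick1, to the right of Sox10, had no row in the table used here.

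Of the genes known as SOX10 targets in melanocytes and glia, 11 of 24 were measured, and 1 rose and none fell. In these counts each gene stands for its most abundant transcript, and among the named genes 1.76% were higher and 1.39% lower by that rule. Erbb3, a neuregulin receptor of glia and melanocytes, rose 3.38-fold from 13.15 to 44.50 in the authors' deposited table (with an adjusted p of 0.038). Of the 11 genes 10 had a higher value with simvastatin, with a median log2 fold change of 0.70, beside 0.01 over all named genes. By gene totals 9 of the 11 were higher, with a median log2 ratio of 0.58. The pigment enzyme gene Tyr, named after its values were seen, was at the median with 36.39 and 22.30 for its most abundant transcript, while its totals were 50.22 and 53.09 in the authors' deposited table. Dct had 3306 with simvastatin and 2208 in control, and Pmel, of the melanosome matrix, 2751 and 1853 in the authors' deposited table (with adjusted p-values of 0.127 and 0.109). The pigment gene Tyrp1 had 1385 and 1139 in the authors' deposited table (with an adjusted p of 0.304). Mitf had 132.6 and 121.9 in the authors' deposited table (with an adjusted p of 0.714).

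By the authors' call 4 of the 11 were higher, Erbb3 among them, and none lower, beside 6.86% higher and 5.51% lower of all named genes by the same rule. Of the others, Gjc3 and Cdh19 were named after their values were seen. Gjc3, a connexin gene of glia, had 18.84 and 11.32 in the authors' deposited table (with an adjusted p of 0.051). Cdh19, a cadherin gene of Schwann cell precursors, had 37.74 and 17.17 in the authors' deposited table (with an adjusted p of 0.065). Of the 6 markers of Schwann cells and glia, 3 were measured, S100b and Pmp22 among them, with summed values of 119.7 with simvastatin and 61.2 in control. None of the 3 passed the test, and Mbp and Gfap were among those with no row in the table used here. The part of other cells in these values was not tested.

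Of the cartilage genes known as SOX9 targets, 3 of 20 were measured, and none passed. These were Cd44, a hyaluronan receptor gene, with 146.5 and 113.5 in the authors' deposited table (with an adjusted p of 0.058), and the SoxD genes Sox5 and Sox6. The collagen gene Col2a1 and the aggrecan gene Acan, the defining genes of cartilage, had no row in the table used here.

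Among other neural crest factors and receptors, 8 of 25 were measured and none passed. Their median log2 fold change was -0.12 by most abundant transcripts and 0.22 by gene totals, so the list has no direction that holds under both. Pax3, which acts with Sox10 on Mitf, had 27.08 and 19.23 in the authors' deposited table (with an adjusted p of 0.110). Tfap2a, an AP-2 factor gene, had 15.36 and 11.18 in the authors' deposited table (with an adjusted p of 0.597). Ets1 had 23.40 and 47.82 in the authors' deposited table (with an adjusted p of 0.642). Id2, an inhibitor of helix-loop-helix factors, also had transcripts that went both ways, with 0.09 and 27.29 for 1 transcript and 12.72 and 6.95 for the other in the authors' deposited table (with adjusted p-values of 0.613 and 0.589).

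SOX partners and regulators of SOX proteins were measured for 23 of 30 genes, none of which passed, with a median log2 fold change of -0.01. Ctnnb1, for beta-catenin, had 246.3 and 228.9 in the authors' deposited table (with an adjusted p of 0.871). Kpnb1, for the importin that carries SOX proteins into the nucleus, had 74.2 and 103.0 in the authors' deposited table (with an adjusted p of 0.089). The deacetylase gene Hdac2 had 50.3 and 64.4 in the authors' deposited table (with an adjusted p of 0.052).

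Of 28 genes of the TGF-beta, BMP, Hedgehog, Notch and Wnt pathways, which feed into SOX gene expression, 14 were measured, and 1 fell. Smo, the signal transducer of the Hedgehog pathway, fell 1.5-fold from 31.97 to 21.35 in the authors' deposited table (with an adjusted p of 0.042). Fzd7, a Wnt receptor gene, had 19.94 and 29.52 in the authors' deposited table (with an adjusted p of 0.052). Lrp6, a Wnt co-receptor gene, had 34.34 and 28.66 and Smad4, the shared SMAD, 26.26 and 24.99 in the authors' deposited table (with adjusted p-values of 0.222 and 0.748). The list's median log2 fold change was 0.10. By the authors' call Smo was not called, and the 1 gene of the list that was called stood on the higher side. It was the ligand gene Tgfb1, named after its values were seen, with 5.29 and 2.55 in the authors' deposited table (with an adjusted p of 0.195).

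**Figure D4:**
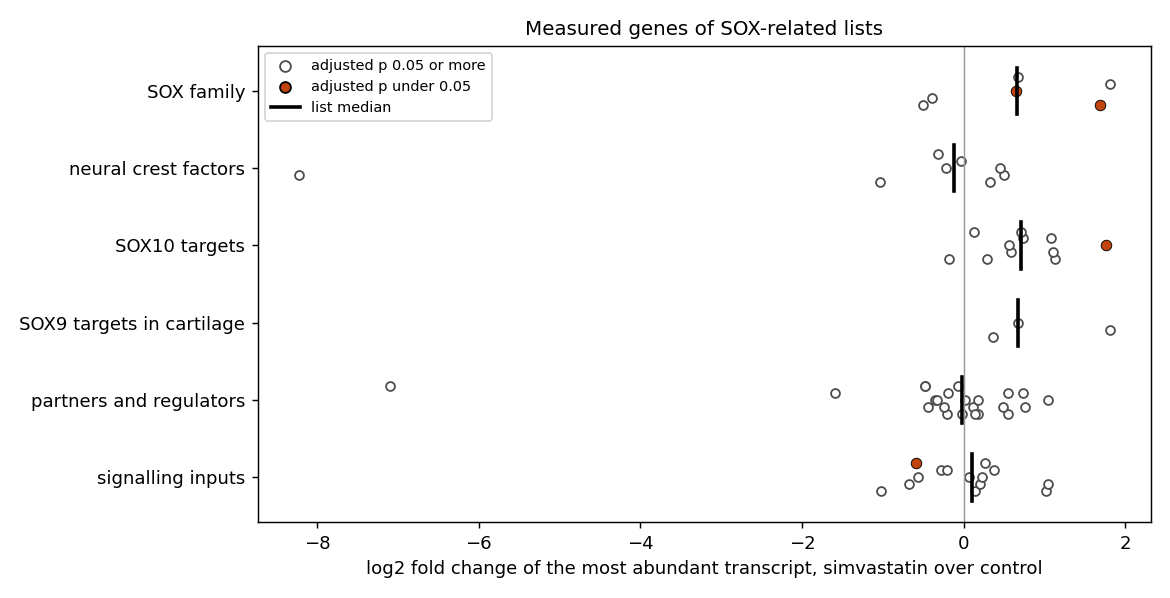
Each point is a measured gene of the SOX family or of 5 related lists, placed by the log2 fold change of its most abundant transcript (simvastatin over control); filled points have an adjusted p under 0.05 and bars are list medians. The filled points are Sox9 and Sox4 in the family, Erbb3 among SOX10 targets and Smo, on the lower side, among signalling inputs; the medians of the family and of the SOX10 targets are 0.66 and 0.70.

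The authors' other tables touched the family at 2 points. In their comparison with A375, a human melanoma line given 10 µM simvastatin in an outside signature, Sox9 and Sox4 were the SOX genes among 158 entries. For Sox9 the authors' deposited table of that comparison lists a mouse log2 fold change of 1.38 and an A375 z-score of 1.03, and for Sox4 it lists 0.63 and -0.45. The signs are thus the same for Sox9 and opposite for Sox4, while 118 of the 158 entries had the same sign. A z-score at least as far from 0 as that of Sox9 was listed for 55.1% of the entries, and doses differed between the lines. In the authors' deposited table of enriched terms, 7 of 148 terms held a SOX gene, all on the higher side. These terms were drawn from the authors' called genes, where the SOX genes are all higher, so that side was fixed in advance. Sox4, Sox6 and Sox9 stood together in the term for repression of RNA polymerase II transcription, which counts 47 genes. Sox10 and Sox11 do not carry the call and so could not stand in any term.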

How the data were processed

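RNA from 3 untreated and 3 simvastatin-treated samples had been sequenced from stranded total RNA libraries, per the labels' protocols, and samples were grouped by their titles. HISAT2 2.0.5, StringTie and GRCm38 (mm10) are named in the submitters' processing notes. Counting, the filter on low values, the authors' test and the unit are not stated in the labels or headers used here.

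The deposited table holds, per the file headers, 1 signal value per group and transcript, a signed fold ratio, a p-value and adjusted p-value to 3 decimals, and a call. Other deposited tables hold, per the file headers, a log2 fold change, a z-score (a standardised change score of an outside signature) of A375 cells, and the numbers of genes per enriched term. No per-sample value was used, so no model was refitted and depth and SD are unknown. Log2 fold changes were taken from the authors' folds. Gene totals, motif matches, shared runs and a Benjamini-Hochberg adjustment, which was tested on simulated data, were computed in Python 3.11.15 with GENCODE M21 and RefSeq GRCm38.p6. No protein sequence table was used.

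Named genes were all SOX genes, chromosomal neighbours, the 3 genes most alike, and, per list, members past the threshold and the 4 of highest value. Some genes this rule names are not reported here. Members, lists and rules were chosen with earlier results of these data known. Alternatives were gene totals, Ensembl transcripts only, a pseudocount of 1, other scalings, thresholds and calls.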

Additional observations from a re-analysis of the deposited data

How the results depend on the processing

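The log2 fold change of Sox9 was positive under each alternative tried and ran from 1.38 (pseudocount of 1) to 1.89 (values divided by group sums). Since Sox9 has 1 transcript, from Ensembl, gene totals and Ensembl transcripts only rest on the same values. A pseudocount cannot change a sign, so only the scalings could have done so. The adjusted p of Sox9 was not refitted under those settings and is the authors' 0.043 throughout. Recomputing the Benjamini-Hochberg step from the printed p-values gave 0.0357, the value shared by transcripts whose p is printed as 0.001, so it rests on rounded and tied p-values. The authors' call holds Sox9 as well. Sox10 changed sign with the sum over its transcripts, from -0.51 for the most abundant one to 0.028, and its transcripts do not carry the authors' call. The gap between Sox9 and Sox10 was 2.20, and 1.66 by gene totals and 1.86 with a pseudocount of 1. The count of 2 SOX transcripts became 4 with the authors' call and 3 at an adjusted p under 0.1. The family's median log2 ratio of gene totals was 0.55, and 0.66 by most abundant transcripts, 0.75 with values divided by group sums and 0.52 with a pseudocount of 1. With the authors' call the numbers of changed genes became 4 for SOX10 targets, 2 for SOX9 targets in cartilage and 1 for partners and regulators, where the adjusted p gave 1, 0 and 0. The 2 SOX9 targets are Sox5 and Sox6, which are already in the family's count of 4. By that call 6.86% of all named genes were higher and 5.51% lower. In the signalling list the count of 1 stood for Smo, lower, by the adjusted p and for Tgfb1, higher, by the authors' call. The median log2 ratio of neural crest factors changed sign with gene totals, from -0.12 to 0.22. The cause of these shifts was not tested. No paired analysis was possible because the table gives 1 value per group, and for the same reason no replicate could be left out.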
